A study of Mus musculus with 40 samples.

Results

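Acetylcholine, serotonin, adenosine and endocannabinoids set the excitability of cortical circuits through receptors that act more slowly than, or upstream of, glutamate transmission. The transcripts described here encode 8 such receptor proteins in mouse cortex, which are the muscarinic acetylcholine receptors Chrm1 and Chrm3, the nicotinic acetylcholine receptor subunits Chrna4 and Chrnb2, the serotonin receptors Htr2a and Htr2c, the adenosine receptor Adora1 and the cannabinoid receptor Cnr1. The members were all RefSeq transcripts of these 8 gene symbols in the deposited expression table, and they came to 9 of its 6831 transcripts, because Adora1 had 2 transcripts and each other gene had 1. All 8 symbols were found. The membership rule used no measured value, but the members were chosen with earlier results of these data known.

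Cortex RNA was sequenced in 40 libraries from male C57BL/6 mice aged 12 weeks, with 10 libraries in each of 4 groups. Saline sham mice received saline and the sham procedure, saline HF-HI mice received saline and high-frequency head impact (HF-HI, a model of repeated mild blows to the closed head), memantine sham mice received memantine and the sham procedure, and memantine HF-HI mice received both the drug and the impacts. Injections of saline or of memantine, which blocks open NMDA receptor channels, were given into the peritoneum 1 h ahead of each session, and the tissue was taken 24 h after the last one. All 4 groups therefore shared the injections and the handling, and the impact and sham mice also shared the isoflurane anaesthesia that the study's methods describe. The labels do not say whether each library is a separate mouse, and the p-values measure the spread between these libraries.

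The deposited values are on a log2-like scale that is compressed at low counts, and 1 unit of log2 count appears as 0.295 deposited units at a count of 500, 0.4 at 1000 and 0.525 at 2000. Levels are therefore given as normalised read counts (counts divided by a size factor per library, recovered from the deposited values), and differences are given on both scales. Each library summed to between 13322404 and 17529644 counts. The least abundant transcript had a mean count of 549.2, where counting error alone amounts to 4.27%. The transcripts of all 6 listed markers of excitatory cortical neurons, which include Slc17a7 and Tbr1, were in the table, and the label of cortex was kept. Transcripts of 19 of 29 striatal markers were also there, Drd1 and Penk among them, and their summed count was 79474 ± 8946 in sham and 69931 ± 5111 in HF-HI mice given saline (SD, n = 10 each), and 79001 ± 9468 and 76372 ± 8601 in those given memantine. Some of these striatal markers, such as Foxp1 and Bcl11b, are also made in cortex. The same may hold for the hippocampal, thalamus and choroid plexus lists used further on. A list name therefore does not show where its transcripts came from. The table held no low-count transcripts, so a marker missing from it cannot be read as a level of 0.

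The receptors use different signalling routes. Chrm1, Chrm3, Htr2a and Htr2c are coupled to Gq proteins, which activate phospholipase C and release calcium from internal stores. Adora1 and Cnr1 are coupled to Gi/o proteins, which lower cyclic AMP, open potassium channels and reduce transmitter release at presynaptic terminals. Chrna4 and Chrnb2 assemble into a ligand-gated cation channel, the most abundant high-affinity nicotinic receptor of the brain. In cortex, Chrm1 and Htr2a are best known from pyramidal neurons, Cnr1 from the terminals of cholecystokinin interneurons, and Htr2c transcripts are known to be very abundant in choroid plexus.

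Levels were compared between genes only per kilobase of transcript, with both Adora1 transcripts summed. Over the 40 libraries, Cnr1 had the highest level at 845 ± 59.8 normalised counts per kb (SD, n = 40), followed by Chrm1 at 506 ± 67.3, Adora1 at 477 ± 94.7, Chrm3 at 247 ± 22.3, Chrnb2 at 189 ± 14.7, Chrna4 at 157 ± 24.3, Htr2c at 151 ± 43.2 and Htr2a at 121 ± 17.7. Cnr1 was above Chrm1 in 40 of 40 libraries with no overlap of the ranges. Chrm1 was above Adora1 in 22 of 40 libraries, Chrna4 above Htr2c in 25 and Htr2c above Htr2a in 29, so these neighbours did not separate beyond their spread. Chrm3 was below Adora1 in 39 libraries and above Chrnb2 in 38, and Chrnb2 was above Chrna4 in all 40. The one other receptor of these families in the table was Chrm4, a Gi-coupled muscarinic receptor, at 742 ± 58.8 normalised counts in saline sham (n = 10), and its p-values ran from 0.277 to 0.983 in the 4 pairwise comparisons.

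**Figure D1:**
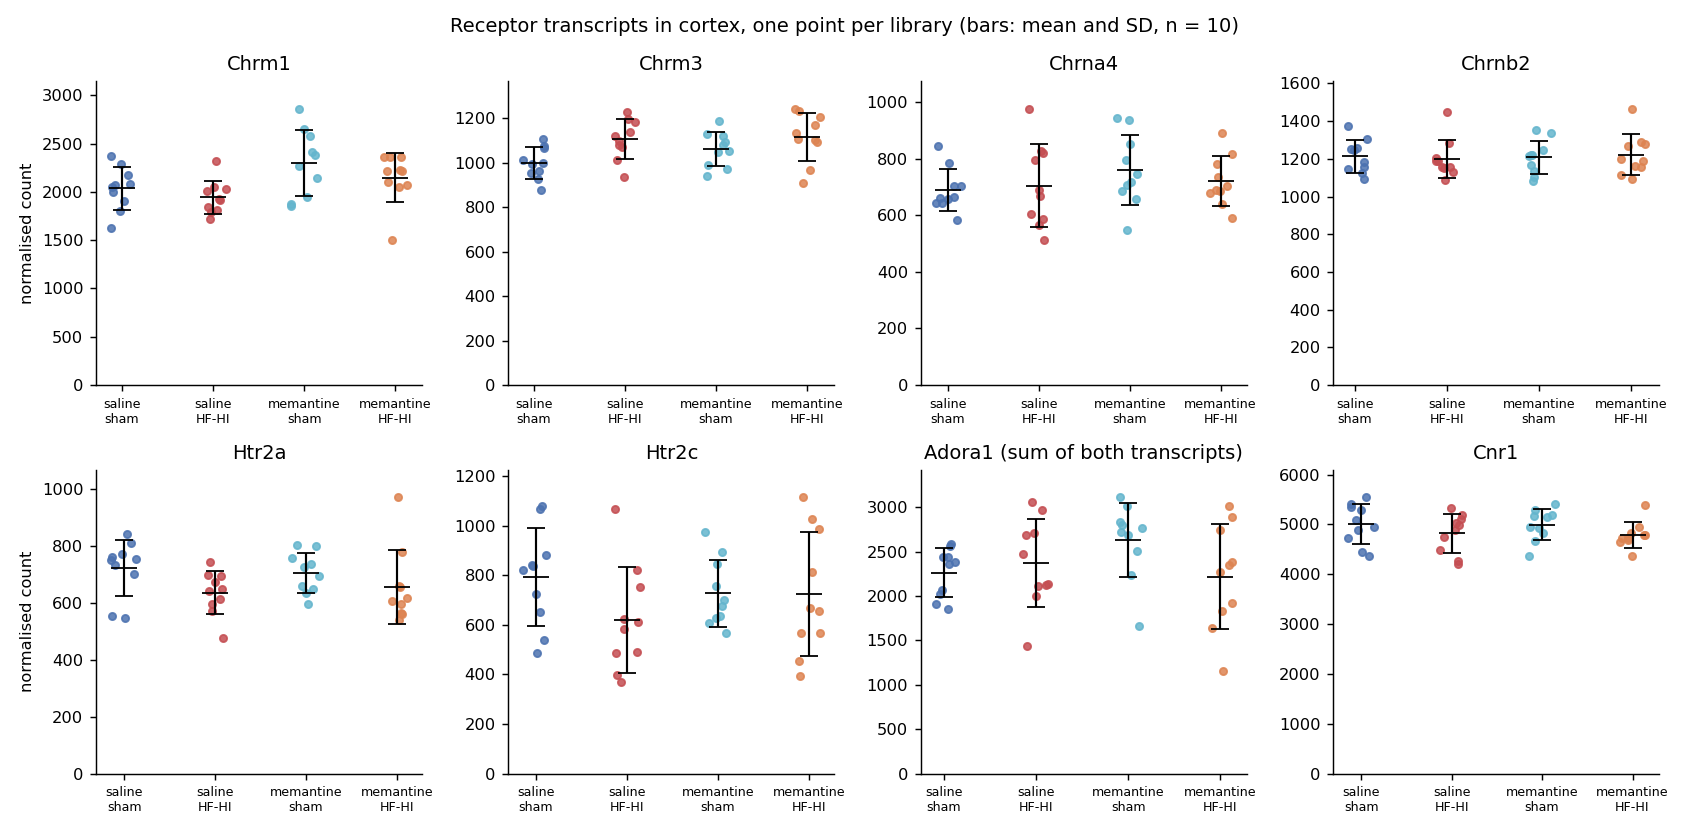
Normalised read count (vertical axis, linear from 0) of each receptor gene in the 4 groups (horizontal axis), 1 point per library, with bars for the mean and SD of 10 libraries. The groups overlap for every gene, with Chrm3 at 997 in saline sham against 1106 in saline HF-HI, and Htr2c the widest of the genes with a single transcript.

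Promoter sequences are shown for the 2 pairs of genes whose transcripts had the highest positive correlations over the libraries, as described further on. Htr2c and Chrm3, which were opposed more strongly (r = -0.73), are not shown. RefSeq start sites of build GRCm38.p6 gave 10 windows of 250 bases upstream for 7 of the 8 genes, and Chrm1 had no entry. The windows of Chrna4 and Cnr1 lie inside the RefSeq extent of their gene. Of each window, the bases ahead of any GENCODE exon of the gene are printed 5′ to 3′ on the gene's strand in lower case. Capitals mark matches, on either strand, to the GC box GGGCGG, to TGACG (the shared part of cyclic AMP response elements), to CCAAT or to TATAAA. The longer motifs TGACGTCA and GCGTGGGCG were also searched and had no match in these windows. The first of these contains TGACG.
Chrnb2, chr3:89764633-89764882, minus strand: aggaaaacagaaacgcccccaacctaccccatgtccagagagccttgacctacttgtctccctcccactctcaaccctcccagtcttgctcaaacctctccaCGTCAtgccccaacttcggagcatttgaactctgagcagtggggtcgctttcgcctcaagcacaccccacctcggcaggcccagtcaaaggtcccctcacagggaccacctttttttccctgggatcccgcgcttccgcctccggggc
Chrna4, chr2:181039306-181039427, minus strand: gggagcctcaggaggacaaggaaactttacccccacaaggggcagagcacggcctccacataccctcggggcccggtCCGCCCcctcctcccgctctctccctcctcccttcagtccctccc
Htr2a, chr14:74640624-74640839, plus strand: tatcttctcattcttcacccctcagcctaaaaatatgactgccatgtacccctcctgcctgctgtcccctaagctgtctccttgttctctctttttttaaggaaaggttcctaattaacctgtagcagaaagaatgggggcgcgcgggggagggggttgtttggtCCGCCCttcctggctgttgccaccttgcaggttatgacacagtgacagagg
Cnr1, chr4:33924014-33924263, plus strand: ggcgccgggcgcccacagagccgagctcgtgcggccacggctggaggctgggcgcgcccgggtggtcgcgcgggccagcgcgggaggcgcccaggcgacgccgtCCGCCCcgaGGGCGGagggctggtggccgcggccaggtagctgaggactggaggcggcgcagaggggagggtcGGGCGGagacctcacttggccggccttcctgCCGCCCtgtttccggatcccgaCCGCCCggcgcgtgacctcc

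The 4 windows were not alike. The full 250-base window of Chrna4 was 74.4% G and C with 3 GC boxes, 1 of them in the printed bases, and that of Chrnb2 was 59.6% G and C with 0, and Chrnb2 had 1 TGACG match. The first of 3 Cnr1 windows was 79.2% G and C with 5 GC boxes, and the Htr2a window was 52.8% G and C with 1, near the median of 52.4% over 32851 windows. A GC box was found in 32.7% of all windows, TGACG in 17.8%, CCAAT in 33.8%, TATAAA in 12.4%, TGACGTCA in 1.55% and GCGTGGGCG in 0.536%. A match in these letters is a description of the window, not a binding site.

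The first comparison asked how repeated head impact altered cortical transcripts under saline. At an unadjusted limma p-value under 0.05, 2 of the 9 member transcripts passed, with Chrm3 higher and Htr2c lower in saline HF-HI than in saline sham. Over all 6831 transcripts 9.53% passed at that level and 0.205% passed at a Benjamini-Hochberg adjusted p under 0.1, and no member reached the second level (adjusted p from 0.347 to 0.962 in limma). Of the 9 transcripts, 3 had a higher and 6 a lower mean. The median difference of the members was -0.0347 deposited units, against -4.65e-05 for all transcripts. In bulk tissue, fewer cells of a type and less RNA per cell cannot be told apart.

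Chrm3 encodes the Gq-coupled M3 muscarinic receptor (chr13:9875486-10361062). Its normalised count ran from 875 to 1106 with a median of 998 in saline sham, and from 934 to 1228 with a median of 1107 in saline HF-HI. The means were 997 ± 71.6 and 1106 ± 88.5 (SD, n = 10 each). The ranges overlapped, but 9 of 10 HF-HI libraries lay above the sham mean and 5 lay above the highest sham library. The difference was 0.0606 ± 0.022 deposited units (SE), or 0.15 on the log2 count scale with a 95% interval of 0.04 to 0.26, which is 10.8% (limma p = 0.00838, adjusted p = 0.347). A two-sided permutation test over libraries with 100000 resamples gave p = 0.00922. The call held in all 40 fits that left out 1 library, with p from 0.00187 to 0.0218.

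In the memantine groups, Chrm3 ran from 940 to 1186 (median 1067) in sham and from 909 to 1243 (median 1121) in HF-HI. On the log2 count scale the difference was 0.07 with an interval of -0.04 to 0.18 (limma p = 0.179, adjusted p = 0.967), and p was 0.0453 without memantine HF-HI replicate 6. The 2 impact effects did not differ detectably, with an interaction of -0.08 on the log2 count scale (interval -0.23 to 0.08, limma p = 0.324). Averaged over both drugs, Chrm3 was 0.11 log2 units higher after impact (interval 0.03 to 0.19, limma p = 0.00566, adjusted p = 0.266), and without any 1 library p stayed between 0.000969 and 0.0107.

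Htr2c, on chromosome X (chrX:146962464-147197277), encodes the Gq-coupled 5-HT2C receptor. It ran from 485 to 1081 with a median of 828 in saline sham and from 370 to 1068 with a median of 597 in saline HF-HI. The means were 793 ± 199 and 620 ± 212 (SD, n = 10 each). The 2 groups overlapped over nearly their whole range, although 8 of 10 HF-HI libraries lay below the sham mean and 2 lay below the lowest sham library. The log2 count difference was -0.38 (interval -0.75 to -0.01), or -0.126 deposited units (limma p = 0.0495, adjusted p = 0.523), while the permutation test gave p = 0.0693.

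That Htr2c result stood at the threshold. It held in 12 of 40 fits that left out 1 library, where p ran from 0.0116 to 0.107, highest without saline HF-HI replicate 9. In the fit per gene symbol, the Htr2c call was also lost when only the groups compared were held. Under memantine the medians were 687 in sham (range 567 to 973) and 662 in HF-HI (range 393 to 1114), with a log2 count difference of -0.06 (interval -0.43 to 0.31, limma p = 0.833). The interaction was 0.32 (interval -0.21 to 0.84, limma p = 0.207), so a difference between the drug arms was not shown. Its coefficient of variation within groups was 18.6% to 34.4%, against 7.18% to 9.73% for Chrm3.

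Htr2a encodes the 5-HT2A receptor, the Gq-coupled target of classical psychedelic drugs (chr14:74640874-74706859). It ran from 546 to 842 with a median of 752 in saline sham and from 476 to 744 with a median of 644 in saline HF-HI. Of the 10 HF-HI libraries, 9 lay below the sham mean, which was 722 ± 98.5 against 635 ± 76.2 in HF-HI. The log2 count difference was -0.18 (interval -0.36 to 0.00) and narrowly missed the unadjusted level (limma p = 0.0507, adjusted p = 0.527, permutation p = 0.0512). It passed that level in 10 of 40 fits without 1 library, with p down to 0.0159 without saline sham replicate 6.

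Under memantine, Htr2a ran from 596 to 801 with a median of 710 in sham and from 540 to 969 with a median of 612 in HF-HI. The highest value came from replicate 5, and 8 of 10 HF-HI libraries lay below the sham mean. Its log2 count difference was -0.12 (interval -0.30 to 0.06, limma p = 0.204), and it was at p = 0.0252 without memantine HF-HI replicate 5. Averaged over both drugs, Htr2a changed by -0.15 log2 units after impact (interval -0.28 to -0.02, limma p = 0.0246, adjusted p = 0.438), and p ran from 0.00209 to 0.0457 over the 40 fits without 1 library. In that averaged comparison 2 of the 9 transcripts passed at unadjusted p under 0.05, against 9.66% of all transcripts, and 0 at adjusted p under 0.1 in limma, against 0.425%.

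Marker levels moved alongside these results. Of 32 striatal marker transcripts, 12 were lower and 0 higher in saline HF-HI than in saline sham at unadjusted p under 0.05, and with the striatal marker mean as a covariate the difference in deposited units was 0.04 in place of 0.06 for Chrm3 (limma p = 0.0763) and -0.06 in place of -0.13 for Htr2c (limma p = 0.342). Averaged over drugs with that covariate, Htr2a was at -0.04 in place of -0.05 (limma p = 0.0828) and Chrm3 at 0.03 in place of 0.05 (limma p = 0.0471). Of 8 inhibitory neuron marker transcripts, 4 were lower and 1 higher, and their summed count was 20588 ± 1202 in saline sham (range 18766 to 22773) and 19175 ± 916 in saline HF-HI (range 18253 to 21352). The 7 excitatory neuron marker transcripts summed to 44230 ± 5020 and 45237 ± 4665, and the 3 hippocampal ones (Neurod6, Pdzd2 and Wfs1) to 4719 ± 338 and 4171 ± 428, with 1 transcript higher and 2 lower in mean value. At unadjusted p under 0.05 the hippocampal calls were 1 higher and 1 lower, and 1 transcript passed at adjusted p under 0.1 in limma. The 3 choroid plexus transcripts (Ttr and 2 of Enpp2) ran from 4970 to 30682 in saline sham and from 5710 to 22363 in saline HF-HI. The striatal markers were themselves lower in saline HF-HI, so the fit with that covariate cannot separate their levels from the impact. The part of these marker levels in the receptor results was not tested.

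**Figure D2:**
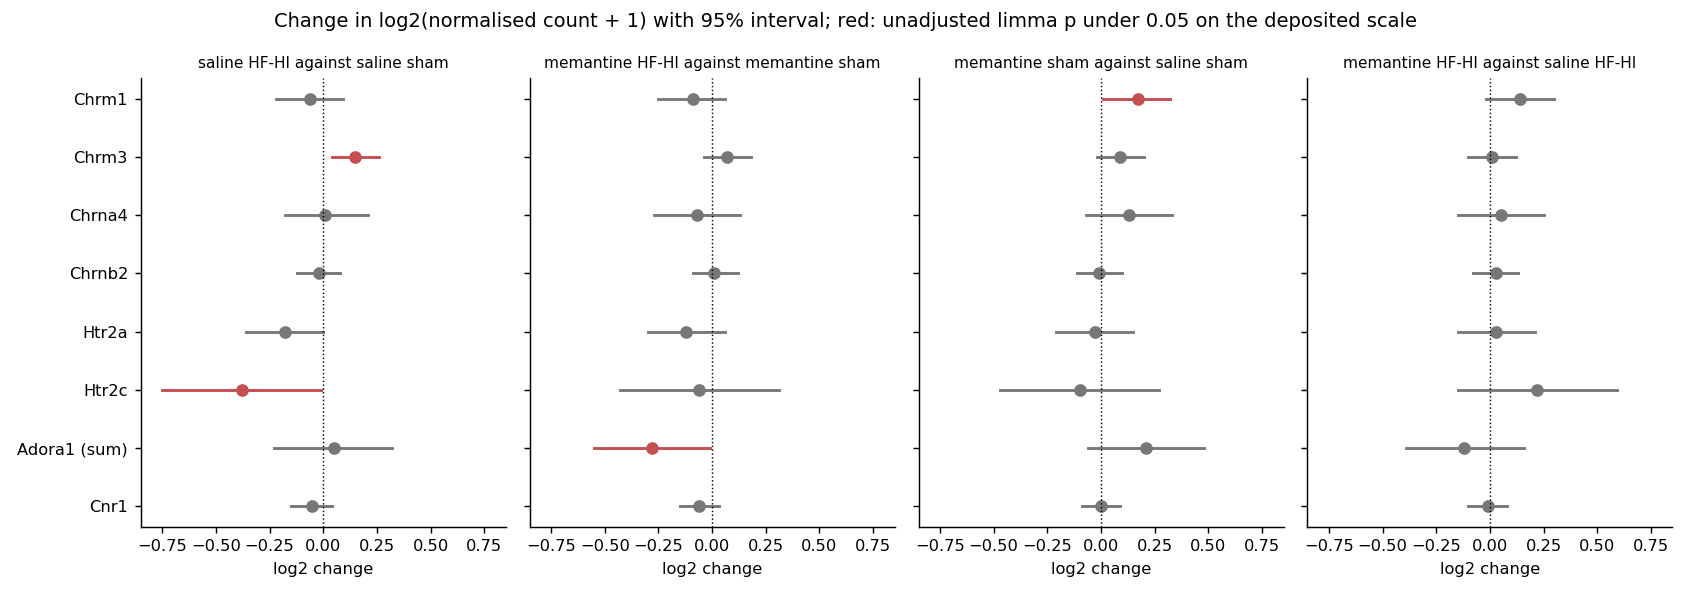
Difference in log2(normalised count + 1) for each receptor gene (points, with lines for the 95% interval) in the 4 pairwise comparisons, drawn on 1 horizontal scale with 0 dotted. Red marks an unadjusted limma p under 0.05 on the deposited scale, which was reached by Chrm3 and Htr2c under saline, by the Adora1 sum under memantine and by Chrm1 between the sham groups.

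The muscarinic receptor Chrm1, which encodes the M1 receptor of cortical pyramidal cells (chr19:8664005-8683606), passed the unadjusted level in a comparison of the drug. In memantine sham against saline sham, the comparison of the drug without impact, it was the 1 member of 9 that passed at unadjusted p under 0.05. Over all transcripts 7.51% passed at that level, and 0.0293% passed at adjusted p under 0.1. No member passed the second level (adjusted p from 0.635 to 0.989). Of the 9 transcripts, 4 had a higher and 5 a lower mean.

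Chrm1 ran from 1624 to 2367 with a median of 2060 in saline sham and from 1849 to 2861 with a median of 2325 in memantine sham. The means were 2036 ± 222 and 2297 ± 345 (SD, n = 10 each), and 5 of 10 memantine sham libraries lay above every saline sham library. The log2 count difference was 0.17 (interval 0.01 to 0.32), or 12.3% (limma p = 0.0334, adjusted p = 0.635), and the permutation test gave p = 0.0659. The call held in 33 of 40 fits that left out 1 library and was lost without saline sham replicates 1, 4 or 6 or memantine sham replicates 4, 7, 8 or 10, with p up to 0.089. It was also lost when the fit held only the 2 groups compared (p = 0.0548).

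In the impacted mice Chrm1 ran from 1723 to 2317 with a median of 1921 under saline and from 1505 to 2362 with a median of 2216 under memantine. Of the 10 memantine HF-HI libraries, 9 lay above the saline HF-HI mean, and 1, replicate 1, lay below every saline HF-HI library. Memantine and saline differed by 0.14 on the log2 count scale (interval -0.02 to 0.30, limma p = 0.0803, adjusted p = 1.0, permutation p = 0.0623), and it was at p = 0.0103 without memantine HF-HI replicate 1 and at p = 0.0379 without saline HF-HI replicate 4. Averaged over sham and HF-HI, Chrm1 was 0.15 log2 units higher under memantine (interval 0.04 to 0.26), or 11.2% (limma p = 0.00739, adjusted p = 0.476), and p stayed between 0.000779 and 0.0144 without any 1 library. It was the 1 member that passed in the averaged drug comparison, in which 8.11% of all transcripts passed at unadjusted p under 0.05 and 0.0146% at adjusted p under 0.1.

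Chrm1 did not pass the unadjusted level in either impact comparison, and its drug and impact effects were not tested against each other. On the log2 count scale it differed by -0.06 under saline (interval -0.22 to 0.09, limma p = 0.407) and -0.09 under memantine (interval -0.25 to 0.06, limma p = 0.219). The excitatory neuron markers were at 47133 ± 5739 summed counts in memantine sham (range 39618 to 56447) against 44230 ± 5020 in saline sham (range 37982 to 53405), and 2 of their 7 transcripts were higher at unadjusted p under 0.05. Their part in the Chrm1 difference was not tested. With the striatal marker mean as a covariate, Chrm1 was at p = 0.0346 in the sham comparison.

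Among the impacted mice as a whole, memantine against saline gave 0 of 9 members at unadjusted p under 0.05 in limma (3.91% of all transcripts), and at adjusted p under 0.1 there were 0 members and 0% of all transcripts. Of the 9 transcripts, 7 had a higher mean under memantine. The 2 comparisons of memantine share no library, but each shares a group with both impact comparisons, and these values are not independent of each other.

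The nicotinic subunits did not separate the groups. Chrnb2 (chr3:89753448-89764632) had medians of 1214 in sham and 1173 in HF-HI mice given saline, and of 1217 and 1194 in those given memantine, with a full range of 1083 to 1466. Its impact difference under saline was -0.02 on the log2 count scale with an interval of -0.12 to 0.08 (limma p = 0.742), and its largest unsigned difference over the 4 comparisons was 0.03, with an interval of -0.08 to 0.13. Chrna4 (chr2:181022311-181043579) had medians of 662, 679, 732 and 696 in the same order and a full range of 513 to 976. Its impact difference under saline was 0.01 (interval -0.18 to 0.21, limma p = 0.824) and its drug difference in sham mice was 0.13 (interval -0.07 to 0.33, limma p = 0.175).

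Cnr1 (chr4:33923171-33948831), the CB1 receptor that endocannabinoids act on at presynaptic terminals, was the most abundant member and among the steadiest. It ran from 4372 to 5543 with a median of 5019 in saline sham and from 4204 to 5330 (median 4941) in saline HF-HI. With memantine it ran from 4375 to 5402 (median 5050) in sham and from 4366 to 5385 (median 4760) in HF-HI. The coefficient of variation within groups was 5.38% to 8.09%. Both impact differences were small, at -0.05 on the log2 count scale under saline (interval -0.15 to 0.04, limma p = 0.24) and -0.06 under memantine (interval -0.15 to 0.03, limma p = 0.192, with 9 of 10 HF-HI libraries below the sham mean). Averaged over both drugs the difference was -0.06 (interval -0.12 to 0.01, limma p = 0.0825), and it passed the unadjusted level without saline sham replicates 6 or 8, saline HF-HI replicate 6, memantine sham replicate 5 or memantine HF-HI replicate 4. The drug differences were 0.00 in sham mice and -0.01 in impacted mice, with intervals of -0.09 to 0.09 and -0.10 to 0.08.

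Adora1, the A1 receptor through which adenosine damps glutamate release (chr1:134199215-134235457, minus strand), was counted as NM_001008533 and NM_001039510. Both RefSeq transcripts were paired with the same GENCODE transcript of 4968 bases, and reads from their shared bases had to be divided between them, so the level of each is uncertain. NM_001008533 ran from 605 to 2446 with a median of 1705 in saline sham and from 1125 to 2394 (median 1760) in saline HF-HI. With memantine it ran from 663 to 2697 (median 2410) in sham and from 831 to 2516 (median 1739) in HF-HI. NM_001039510 ran from 117 to 1457 (median 547), from 0 to 994 (median 408), from 263 to 1905 (median 395) and from 0 to 1227 (median 454) in the same order.

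NM_001039510 was exactly 0 in saline HF-HI replicate 7 and in memantine HF-HI replicate 5, where the other transcript had all the Adora1 reads. Its coefficient of variation within groups was 61.4% to 82.9%, against 12.1% to 26.5% for the sum of both. The share of NM_001008533 in the Adora1 reads was 67.6% ± 23.1 in sham and 79.6% ± 12.9 in HF-HI mice given saline, and 74.7% ± 22.3 and 75.7% ± 17.4 in those given memantine (SD, n = 10 each). The share differed by 12 percentage points between the saline groups (two-sided permutation p = 0.171 and 0.683 after adjustment over 4 tests), and the other 3 comparisons had permutation p from 0.49 to 0.91.

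**Figure D3:**
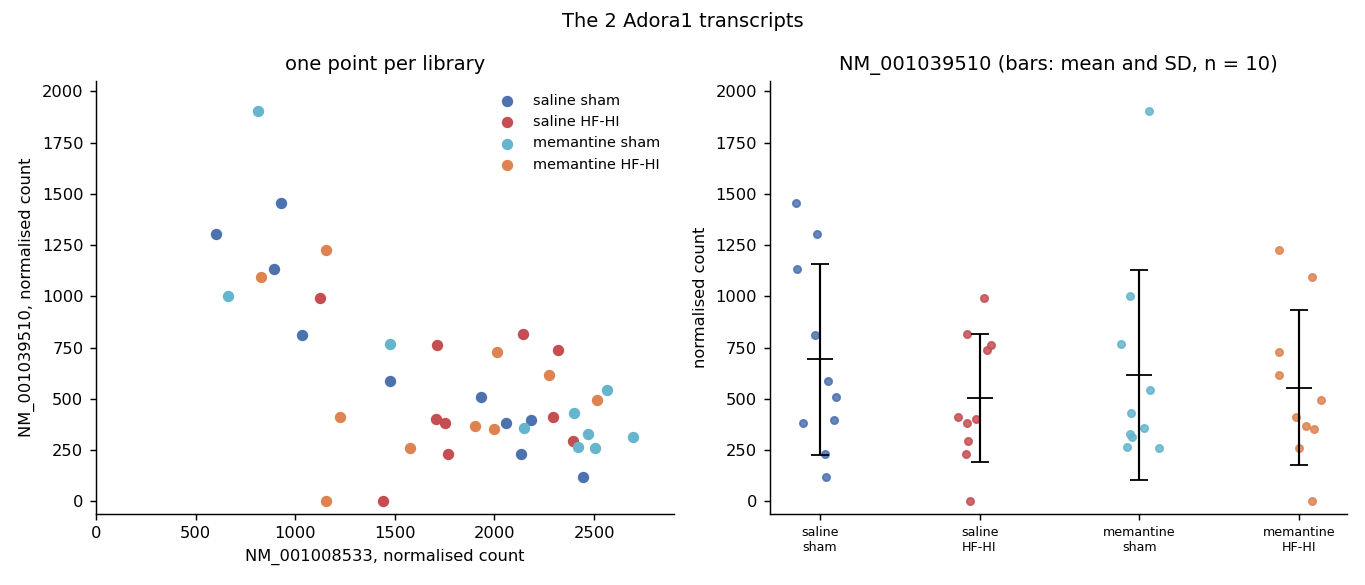
Left, normalised counts of the 2 Adora1 transcripts against each other, 1 point per library, coloured by group. Right, the counts of NM_001039510 by group with the mean and SD of 10 libraries, where 2 libraries are at 0 and memantine sham replicate 2 is at 1905.

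Summed over both transcripts, Adora1 ran from 1849 to 2582 with a median of 2376 in saline sham and from 1440 to 3062 (median 2303) in saline HF-HI. With memantine it ran from 1667 to 3110 (median 2743) in sham and from 1153 to 3011 (median 2310) in HF-HI. The sum was lower in memantine HF-HI (2219 ± 587) than in memantine sham (2633 ± 417) at the unadjusted level, with a log2 count difference of -0.28 (interval -0.55 to -0.01, limma p = 0.0442, adjusted p = 0.962). The permutation test gave p = 0.0889, and the call held in 29 of 40 fits without 1 library, with the highest p of 0.137 without memantine HF-HI replicate 5. It was also lost without memantine sham replicates 1, 2, 3, 4, 6, 8 or 10 or memantine HF-HI replicates 6, 7 or 9, and when the fit held only the 2 groups compared. Under saline the impact difference was 0.05 (interval -0.23 to 0.32, limma p = 0.685), and the interaction was -0.32 (interval -0.71 to 0.06, limma p = 0.0863).

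Memantine sham had the highest Adora1 sums, with 7 of 10 libraries above every saline sham library. The log2 count difference of 0.21 had an interval of -0.06 to 0.48 (limma p = 0.103, permutation p = 0.0453), and limma gave p = 0.0288 without memantine sham replicate 9. Taken as separate transcripts, neither Adora1 transcript passed in any of these comparisons. The 9 members gave 0 calls in memantine HF-HI against memantine sham at unadjusted p under 0.05 in limma (4.61% of all transcripts), and 0 at adjusted p under 0.1 (0.0146%). In the interaction of impact and drug there were 0 of 9 members at either level in limma, against 3.73% and 0% of all transcripts.

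The members varied together across libraries in a structured way. After group means were removed, Pearson's r over the 40 libraries was 0.66 for Chrna4 with Chrnb2 (Spearman's rho 0.59), 0.66 for Cnr1 with Htr2a (rho 0.70) and -0.73 for Htr2c with Chrm3 (rho -0.69). Without the 2 libraries farthest from the median of Chrnb2, Htr2a and Chrm3 in turn, r was 0.59, 0.76 and -0.67. Within single groups the Htr2c and Chrm3 correlation was between -0.87 and -0.65, that of Chrna4 and Chrnb2 between 0.34 and 0.80, and that of Cnr1 and Htr2a between 0.38 and 0.88. Cnr1 and Chrna4 were opposed (r = -0.57, rho = -0.62), as were Chrnb2 and Chrm3 (r = -0.52, rho = -0.44), and Chrm1 and Chrm3 went together (r = 0.47, rho = 0.45). These values come from the same libraries and size factors, 36 pairs were computed, and no test was made.

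The same deviations followed marker lists for tissue and cell types. Of 10 listed thalamus markers only 5 were in the table, with 9 transcripts (Adarb1, Plekhg1, Prkcd, Rora and Slc17a6). Chrnb2 and Chrna4 followed the mean of these 9 at r = 0.82 and 0.81, with rho = 0.72 and 0.76. Cnr1, Htr2a, Chrm1 and Chrm3 went against it at r = -0.54, -0.53, -0.5 and -0.46. The summed thalamus markers ran from 9922 to 17543 in sham and 8138 to 20841 in HF-HI mice given saline, and from 9133 to 19704 and 9493 to 18118 in those given memantine, with means between 12204 and 12428. Both nicotinic subunits also followed the 15 oligodendrocyte transcripts (r = 0.55 for Chrnb2 and 0.61 for Chrna4). Chrm1 and Chrm3 followed the 7 excitatory neuron transcripts (r = 0.79 and 0.64, rho = 0.79 and 0.59). Htr2c went against that list (r = -0.64) and with the inhibitory neuron list (r = 0.61) and the 3 choroid plexus transcripts (r = 0.51, but -0.03 to 0.82 within groups). With the striatal list, Cnr1 was at r = 0.47 (0.35 to 0.64 within groups), Htr2c at 0.38 and Chrm3 at -0.32, and the other members were between -0.21 and 0.17. With the 3 hippocampal transcripts, Chrm1 was at r = 0.51 (-0.05 to 0.91 within groups), Htr2a at 0.38 and Chrnb2 at -0.36. The Adora1 transcripts stayed between -0.19 and 0.29 with every list. What sets these levels, such as the composition of each dissection, was not tested.

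**Figure D4:**
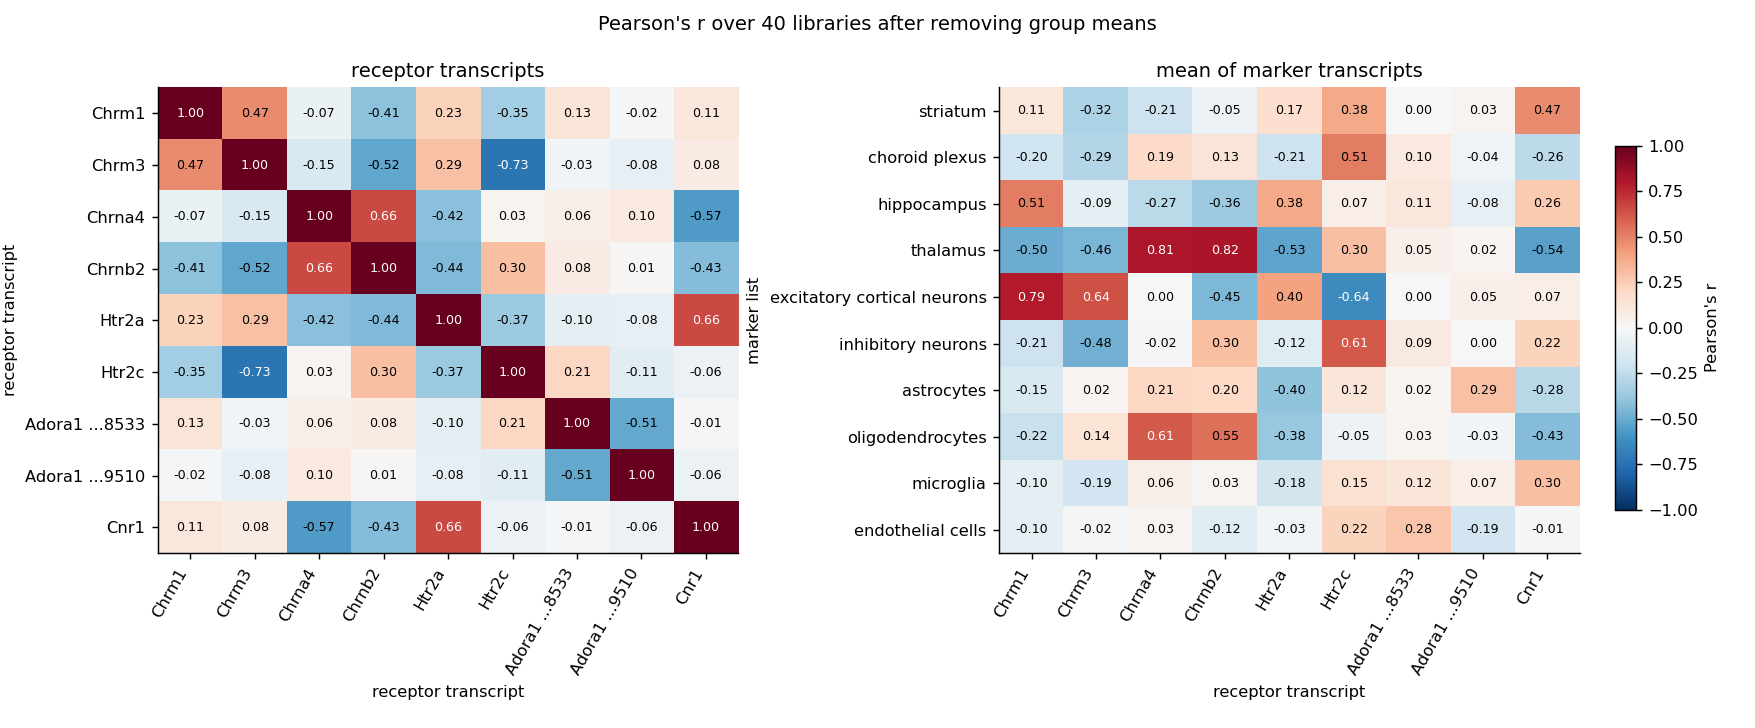
Pearson's r over 40 libraries, after group means were removed, between the 9 receptor transcripts (left) and between each of them and the mean of each marker list (right). Blue is negative and red positive, with the strongest values for Chrnb2 and Chrna4 against thalamus markers (0.82 and 0.81) and for Chrm1 against excitatory neuron markers (0.79).

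**Figure D5:**
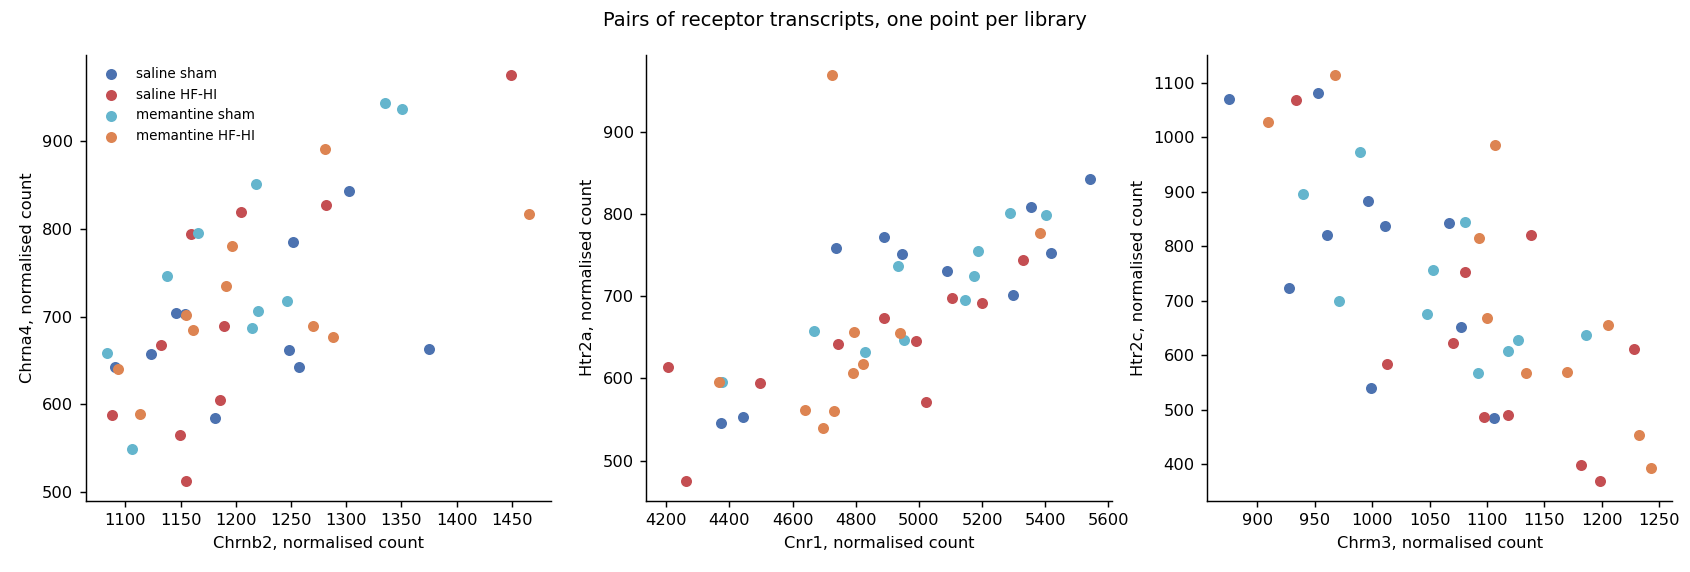
Normalised counts of 3 pairs of receptor transcripts, 1 point per library, coloured by group, on axes that do not start at 0. Chrna4 rises with Chrnb2 and Htr2a with Cnr1, while Htr2c is low where Chrm3 is high (r = 0.66, 0.66 and -0.73 after group means were removed).

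Of all transcripts of other genes, the one most like Htr2c was Vat1l (r = 0.916 over 40 libraries, group means removed), followed by Gad2 (0.828), which makes GABA. Chrm1 was most like Phyhip (0.843) and Slit3 (0.824), Chrm3 like Kcnh7 (0.809), Chrnb2 like Zfhx3 (0.842) and Amotl1 (0.835), and Chrna4 like Cit (0.849) and Kndc1 (0.84). Htr2a was most like Itpr1, the calcium release channel of the Gq route (0.768), and Atf6 (0.765), and Cnr1 like Klhl2 (0.771) and Rragd (0.764). NM_001008533 of Adora1 reached 0.518 with Plekhm2 and 0.513 with Dock9. These are the highest of 6831 values for each member, whose median r with all transcripts was between -0.015 and 0.0013.

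The signalling partners of the receptors were described from 9 lists, of which 69 symbols and 89 transcripts were in the table. After impact under saline, 5 of the 89 were higher and 10 lower than in sham at unadjusted p under 0.05 (16.9%, against 9.53% of all transcripts), and 0 passed at adjusted p under 0.1 in limma. The 4 with the smallest p-values were 3 lower and 1 higher. Gnai1, a Gi alpha subunit, was at 3198 ± 112 normalised counts in sham and 3354 ± 68.7 in HF-HI (limma p = 0.00558, adjusted p = 0.308), with all 10 HF-HI libraries above the sham mean. Adcy5, the adenylyl cyclase of striatal neurons, was at 6052 ± 802 and 5125 ± 501 (limma p = 0.00745, adjusted p = 0.34), with all 10 below it.

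Prkce, a protein kinase C downstream of Gq, was at 8358 ± 471 in saline sham and 7892 ± 284 in saline HF-HI (limma p = 0.0132, adjusted p = 0.389), and all 10 HF-HI libraries lay below the sham mean. Rgs9, a regulator of G protein signalling, was at 1698 ± 268 and 1403 ± 242 in 1 of its 2 transcripts (limma p = 0.0143, adjusted p = 0.406). Adcy5 and Rgs9 are also on the striatal marker list, which was lower in the same comparison.

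Under memantine the impact comparison gave 1 higher and 2 lower of the 89 (3.37%, against 4.61% of all transcripts). The G protein gamma subunit Gng3 was at 985 ± 37.4 in sham and 929 ± 48.7 in HF-HI mice (limma p = 0.015), the protein kinase A subunit Prkar1b was at 8026 ± 453 and 7590 ± 532 (limma p = 0.0378), and Gnai3, a Gi alpha subunit, was at 796 ± 59.5 and 840 ± 38 (limma p = 0.0417). All 3 had an adjusted p of 0.967.

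Between the drugs after impact, 2 were higher under memantine and 4 lower (6.74%, against 3.91% of all transcripts), each with an adjusted p of 1.0 among the 4 that follow. Gnai1 was at 3199 ± 110 under memantine against 3354 ± 68.7 under saline (limma p = 0.00599), and Gng3 was at 929 ± 48.7 against 984 ± 37.5 (limma p = 0.0176). Rgs4, which shortens Gq and Gi signals, was at 8294 ± 313 against 8839 ± 481 (limma p = 0.0285), with all 10 memantine libraries below the saline mean. Gng7, also a striatal marker, was at 2097 ± 320 against 1625 ± 250 (limma p = 0.00972).

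In memantine sham against saline sham, 2 were higher and 2 lower (4.49%, against 7.51% of all transcripts). Kcnj9, a subunit of the potassium channels that Gi-coupled receptors open, was at 2313 ± 88.3 against 2133 ± 158 (limma p = 0.0122, adjusted p = 0.591), with all 10 memantine libraries above the saline mean. Tmem35a, a chaperone of nicotinic receptors, was at 564 ± 60.1 against 640 ± 93.7 (limma p = 0.0129, adjusted p = 0.591). Mgll, which breaks down the endocannabinoid 2-arachidonoylglycerol, was at 2038 ± 299 against 1782 ± 296 in 1 of its 2 transcripts (limma p = 0.0402, adjusted p = 0.641), and Rgs4 was at 8183 ± 321 against 8704 ± 861 (limma p = 0.0413, adjusted p = 0.641). The adenosine handling list had 0 symbols in the table and the serotonin handling list only Maoa.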

How the data were processed

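RNA from dissected cortex was sequenced in 40 libraries, and the labels put 10 of them in each group. Per the study's methods, the authors depleted ribosomal RNA, read stranded libraries in pairs, aligned them to the mouse genome (mm10) with STAR, counted reads per RefSeq transcript with eXpress, and applied the size factors and the variance-stabilising transformation of DESeq2. The submitters' processing notes name HISAT2 and StringTie instead. The deposited values are thus on a log2 scale at high counts, compressed at low ones, for 6831 transcripts. The methods mention removal of outliers by Cook's distance for genes of low mean normalised count, and whether this set the lowest level in the table is not given in the sources used here.

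Normalised counts were obtained by inverting the transformation, whose floor was 10.36. Below a count of 5000, 100% of the values were whole multiples of 1 read per library, within 0.02 reads, with size factors from 0.859 to 1.141. No pair of libraries differed as little as counting noise (lowest index 5.07, where 1 is counting noise). Symbols came from RefSeq (99.62% of transcripts matched). Groups were compared with limma 3.58.1 under R 4.3.3, using lmFit and eBayes with a trend, on the deposited values with a term per group and no covariate, fitted on all transcripts with Benjamini-Hochberg adjustment over all 6831. The Adora1 sum and the results per gene came from a separate fit of the same kind. It used counts summed per symbol and transformed again, with the adjustment over all symbols. Thresholds were an unadjusted p under 0.05 and an adjusted p under 0.1. Intervals on the log2 count scale came from the same fit to log2(normalised count + 1). Single values were also compared by two-sided permutation tests with 100000 resamples in scipy 1.17.1. Counts were simulated for 6831 transcripts in saline HF-HI against saline sham, drawn independently for each transcript. Of these, 100 were changed 1.25-fold and 100 were changed 1.5-fold, and the fit called 77% and 90% of them at the adjusted level. Correlation between transcripts and changes under 1.25-fold were not simulated. The rates are for transcripts picked at random from the table and do not give the power for single members.

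The members, the lists and the tests were chosen with earlier results of these data known. All members were described. From the lists of signalling partners, the 4 transcripts with the smallest unadjusted p under 0.05 were named in each pairwise comparison, and for each member's most abundant transcript the 2 transcripts of other genes with the highest r, of which 1 is not reported here. Alternatives were another scale, variance prior, normalisation, count minimum, sample set, library weights, covariate and block, and leaving out each library. Over all transcripts, the replicate numbers of the labels showed no pairing of libraries across groups, as described with the alternatives. The series' design text gives 4 samples per group, but the labels list 10.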

Additional observations from a re-analysis of the deposited data

Results flagged for a closer look

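In groups of 10 libraries, 40 sets of values (the 9 transcripts and the Adora1 sum in each group) were examined for a library far from the rest, by Dixon's test of its gap to the nearest library against the range, at the 95% level. Chance flags about 1 in 20 such sets, and 3 were found.

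Both Chrm1 and Chrnb2 stood apart in memantine HF-HI replicate 1. Chrm1 was at 1505 normalised counts there against 2045 in the next library, and Chrnb2 was at 1466 against 1288. In the same library the summed thalamus markers were the highest of the group at 18118 (others 9493 to 15189), the oligodendrocyte markers the highest at 64079 (others 49884 to 63159) and the excitatory neuron markers the lowest at 34896 (others 39673 to 53680). The part of these levels in the receptor values was not tested. Without this library, Chrm1 between the impacted groups was at p = 0.0103 (adjusted p = 0.957) in place of p = 0.0803, and Chrnb2 was at p = 0.919 in place of p = 0.613, in limma.

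The Adora1 transcript NM_001039510 was at 1905 normalised counts in memantine sham replicate 2, against 1004 in the next library. Without that library, memantine sham against saline sham was at p = 0.363 for this transcript in limma, in place of p = 0.724, and at p = 0.0484 for NM_001008533, in place of p = 0.143.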

How the results depend on the processing

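Counts of member transcripts at unadjusted limma p under 0.05 were 2 of 9 for impact under saline, and became 1 with each library centred on its median, 1 with a mean normalised count of at least 1000 (fewer transcripts tested), and 0 with the striatal marker mean as covariate. The count in memantine sham against saline sham was 1 and became 0 with only the groups compared. For impact averaged over both drugs it was 2 and became 1 with the minimum of 1000 and 1 with the striatal covariate. For impact under memantine it was 0 and became 1 with transcripts summed per gene symbol. The averaged drug comparison stayed at 1 in every alternative.

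Per gene, with transcripts summed, the count for impact under saline was 3 of 8 genes (Htr2a was the third, at limma p = 0.0482). The share of all symbols that passed in this fit is not given here, so the counts per gene cannot be set against it. That count for impact under saline became 1 with the minimum of 1000 and 0 with the striatal covariate. It became 2, without Htr2a, with each library centred on its median, with arrayWeights or with the replicate block. With only the groups compared it also became 2, without Htr2c. For impact under memantine it was 1 and became 0 with only the groups compared. For memantine after impact it was 0 and became 1 (Chrm1) with only the groups compared and 1 with arrayWeights. In memantine sham against saline sham it was 1 and became 2 with either of these, Adora1 being the other. The interaction count was 0 and became 1 with arrayWeights, where the Adora1 sum was at p = 0.0233. For averaged impact it was 2 and became 1 with the minimum of 1000 and 1 with the striatal covariate. With arrayWeights Chrm3, averaged over drugs, was at an adjusted limma p of 0.0883 per gene, the one member value under 0.1 in any of these fits. Apart from the filters, the causes were not tested.

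Leaving out 1 library gave 1 to 3 calls for impact under saline, 0 to 1 for impact under memantine, 0 to 1 for memantine after impact, 0 to 2 for memantine in sham mice, 0 to 1 in the interaction, 2 to 3 in averaged impact and 1 in averaged drug, by transcript and by gene alike. For single transcripts and the Adora1 sum, 2725 of 2800 such fits and 560 of 572 other alternatives left the call as it was, and no called direction reversed.

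With the replicate number as a block, memantine after impact gave 1 call by transcript (Chrm1, p = 0.0296) and 1 by gene (Chrm1, p = 0.0275) in place of 0, and no other transcript call changed. Same-numbered libraries correlated between -0.13 and 0.16 after group means were removed, with 4 of 60 pairs over 0.1. Of 40 libraries, 3 were closest to one of their own number, so over all transcripts the numbers showed no pairing. This does not decide it for single members, where pairing was not tested. Replicate 1 was the lowest Chrm1 library in every group but memantine sham. By gene, the block gave Chrm1 p = 0.0079 in limma for memantine in sham mice, in place of p = 0.0316. For impact under saline it gave Chrm3 p = 0.0022, in place of p = 0.00788, and Htr2a lost its call. The depth gave a counting error of 4.27% at a count of 549.2, and fold changes of low transcripts are compressed on the deposited scale.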
